A study of Mus musculus with 12 samples.

Results

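The glycolysis and pentose phosphate pathway genes described here are 33 genes, of 54532 listed in the count files, taken by gene symbol. They are 5 glucose and lactate transporters, 10 enzymes of upper glycolysis, 3 bifunctional PFKFB enzymes, 6 enzymes of lower glycolysis, the pyruvate enzymes Ldha and Pdk1, and 7 enzymes of the pentose phosphate pathway. All 33 passed the filter on low counts, beside 14324 genes that passed in all. RNA was sequenced from bone marrow monocytes of mice, sorted as CD11b-positive cells with high Ly6C, and the 12 libraries fell into 4 groups of 3: succinate mice with LPS, control mice with LPS, succinate mice unstimulated and control mice unstimulated. Succinate mice had received 300 mM succinate for 7 days and control mice none, and LPS, the bacterial lipopolysaccharide sensed by Toll-like receptor 4, was added to the sorted cells in culture for 4 h. Strain, genotype, age and sex of the mice and the route of feeding are not given in the labels, and nothing there says that the 3 libraries of 1 group are from different animals, so the spread behind each p-value may be technical.

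Glycolysis splits glucose into pyruvate in the cytosol and yields ATP and NADH, and lactate dehydrogenase turns pyruvate into lactate to restore NAD. The pentose phosphate pathway branches off after the hexokinase step, makes NADPH in its oxidative arm and ribose phosphate in its other arm. Macrophages and monocytes exposed to LPS are known to raise glucose uptake and lactate release, a shift in which the hypoxia-inducible factor HIF-1 takes part. The title of the series names Hif-1α, and succinate is a metabolite that can stabilise it.

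Libraries held 15975882 to 18306747 counts (median 16980357). The 33 genes together took 1.07% ± 0.0433 of the counts in succinate mice with LPS, 1.04% ± 0.0189 in control mice with LPS, 1.15% ± 0.0406 in succinate mice unstimulated and 1.10% ± 0.0198 in control mice unstimulated (SD, n = 3 each). The genes of the sort markers were present in every library, with Itgam, which encodes CD11b, at 155 to 191 normalised CPM (counts scaled to library size) and Ly6c2 at 485 to 1632 CPM. Libraries stood apart within groups. The mean log2 CPM of 5 genes (S100a4, Rpl24 and 3 pseudogenes) was 3.19 to 4.03 in 5 libraries (control LPS 3, succinate unstimulated 2 and 3, control unstimulated 2 and 3) and 0.82 to 1.46 in the other 7. These high libraries are 1 of the 6 with LPS and 4 of the 6 unstimulated, so the split runs partly along the LPS comparison. The limit between high and low was 2.5, in the gap between these same libraries. How the 5 genes were chosen is not given here, so the split is not shown to be independent of these data. Gapdh was high in 3 libraries, described with that gene.

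Promoter sequences of 5 genes are shown because 4 of them (Slc2a1, Ldha, Slc16a3 and Pdk1) are textbook HIF-1 targets that were called with LPS in different directions, and Slc2a6 had the largest called rise with LPS. Each run gives the 250 bases before a RefSeq start site on build GRCm38.p6, 5′ to 3′ on the strand of the gene, with the HIF core motif in capitals. The motif was searched as ACGTG and GCGTG on both strands, so that CACGT and CACGC are the same motif on the other strand.
Slc2a6, chr2:27027999-27028248, minus strand: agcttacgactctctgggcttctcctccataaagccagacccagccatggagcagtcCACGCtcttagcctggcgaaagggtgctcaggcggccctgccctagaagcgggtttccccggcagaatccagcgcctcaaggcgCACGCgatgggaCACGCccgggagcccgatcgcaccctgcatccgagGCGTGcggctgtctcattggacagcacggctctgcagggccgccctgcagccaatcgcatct
Slc2a1, chr4:119108495-119108744, plus strand: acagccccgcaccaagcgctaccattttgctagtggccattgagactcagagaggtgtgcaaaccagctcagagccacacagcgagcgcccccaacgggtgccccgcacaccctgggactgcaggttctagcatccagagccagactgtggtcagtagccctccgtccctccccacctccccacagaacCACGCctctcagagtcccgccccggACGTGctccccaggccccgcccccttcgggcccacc
Slc16a3, chr11:120948817-120949066, plus strand: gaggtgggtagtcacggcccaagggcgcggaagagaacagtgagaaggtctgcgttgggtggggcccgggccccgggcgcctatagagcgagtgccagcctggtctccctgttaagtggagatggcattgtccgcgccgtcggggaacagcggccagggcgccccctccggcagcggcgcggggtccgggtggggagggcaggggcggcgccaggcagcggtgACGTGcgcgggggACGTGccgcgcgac
Ldha, chr7:46845554-46845803, plus strand: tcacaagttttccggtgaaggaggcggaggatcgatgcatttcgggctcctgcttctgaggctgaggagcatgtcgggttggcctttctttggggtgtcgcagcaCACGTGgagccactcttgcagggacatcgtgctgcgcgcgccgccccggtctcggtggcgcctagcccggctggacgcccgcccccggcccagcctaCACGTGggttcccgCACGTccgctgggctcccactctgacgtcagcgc
Pdk1, chr2:71872974-71873223, plus strand: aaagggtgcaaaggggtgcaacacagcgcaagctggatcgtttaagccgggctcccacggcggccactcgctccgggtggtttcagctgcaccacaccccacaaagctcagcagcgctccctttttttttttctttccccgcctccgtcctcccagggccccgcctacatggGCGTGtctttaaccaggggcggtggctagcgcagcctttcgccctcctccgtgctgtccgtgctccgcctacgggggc

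In these stretches Slc2a6 held 4 matches, Slc2a1 2, Slc16a3 2, Ldha 5 and Pdk1 1. The motif ACGTG is also part of the E-box CACGTG, which MYC and related factors bind, and each E-box counts as 2 overlapping matches. Ldha held 2 E-boxes and the other 4 stretches none. Genes that were higher with LPS (Slc2a6, Slc2a1, Ldha) and genes that were lower (Slc16a3, Pdk1) all held the core in the stretch shown. RefSeq windows of 300 bases, 250 before and 50 after a start site, were matched for 32 of the 33 genes and gave 48 windows. Slc2a3 is named here without one. Ldha and Pdk1 had a further window at another start site, with 2 core matches for Ldha and 0 for Pdk1. The stretch shown for these genes is that of the start site listed first. A core was present in at least 1 window of 28 of the 32 genes, and in 79.2% of the 48 windows, against 43.8% of all 32851 windows in the table. The E-box was in 10.4% of the 48 windows and in 7.15% of all windows. The windows of the pathway were richer in G and C, with a median of 60.7% against 52.7% over all windows, and a match is a description of the letters, not of a bound site.

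Levels between genes can be compared only per length, and were set as CPM per kilobase of exon, averaged over all 12 libraries. The length was that of all annotated exons of a gene joined. It can exceed that of a transcript, as with 4133 against 1420 bases for Gapdh, so levels between genes are approximate. Pkm, the pyruvate kinase of lower glycolysis, stood highest at 490, followed by the aldolase Aldoa at 328, the transaldolase Taldo1 at 275 and Pgd, the dehydrogenase that releases carbon dioxide in the oxidative pentose phosphate arm, at 201. Pgk1 (147), G6pdx (129), Eno1 (122), Tkt (116), Gpi1 (115) and Pgam1 (102) followed. The lowest were Aldoc (0.167), Pdk1 (0.756), Pfkfb2 (0.764) and Pfkm (1.19). Gapdh was at 7.39, far under its neighbours in the pathway.

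**Figure D1:**
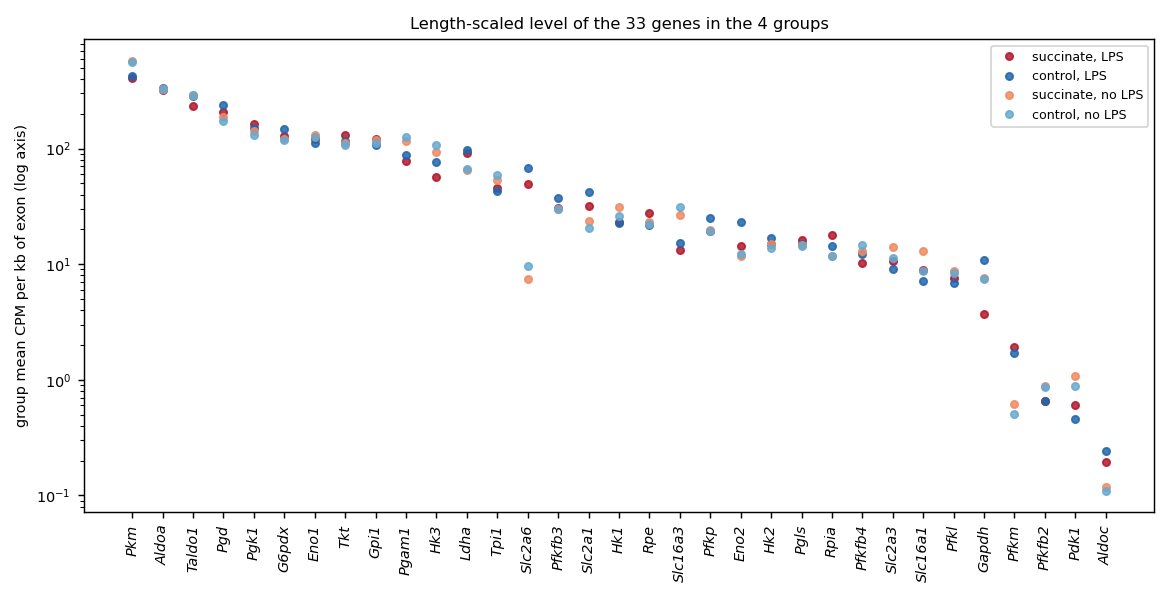
Group mean CPM per kilobase of exon (log axis) of the 33 genes, ordered from high to low, with 1 point per group (n = 3 libraries each). Levels span from Pkm at 490 to Aldoc at 0.167 over all libraries, and the largest gaps between groups are those of Slc2a6 and Pfkm.

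For each step with several isoenzymes, 1 gene held most of the level scaled in this way. These shares depend on the joined exon lengths, such as 8532 bases for Hk1 and 3682 for Hk3. Before scaling, Hk1 averaged 198 CPM and Hk3 209 CPM in succinate mice with LPS. Hk3, the hexokinase of myeloid cells, made up 59.5% ± 3.51 of the 3 hexokinases in succinate mice with LPS, 66.2% ± 5.49 in control mice with LPS, 66.8% ± 7.21 in succinate mice unstimulated and 73.0% ± 2.01 in control mice unstimulated (SD, n = 3 each). Pfkp, the platelet-type phosphofructokinase, made up 66.7% ± 2.51 of the 3 phosphofructokinases in succinate mice with LPS, 74.6% ± 3.57 in control mice with LPS, 68.0% ± 1.5 in succinate mice unstimulated and 68.2% ± 2.52 in control mice unstimulated. Pfkfb3 held 66.0% to 73.7% of the PFKFB genes, Eno1 82.3% to 91.7% of the enolases and Aldoa at least 99.9% of the aldolases, as group means. Among the 3 glucose transporters the leading gene differed with the culture. Slc2a6 held 53.3% ± 6.41 in succinate mice with LPS and 56.8% ± 1.17 in control mice with LPS, against 16.9% ± 4.79 in succinate mice unstimulated and 23.0% ± 6.97 in control mice unstimulated. In unstimulated cells Slc2a1 held the largest share, 51.9% ± 5.11 in succinate mice and 49.95% ± 4.10 in control mice.

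LPS moved members of the pathway in both directions. In succinate mice 9 of the 33 genes (27.3%) passed edgeR's quasi-likelihood test at a Benjamini-Hochberg adjusted p below 0.05, 4 higher and 5 lower with LPS, where 30.2% of all tested genes passed (14.1% higher, 16.2% lower). In control mice 13 (39.4%) passed, 7 higher and 6 lower, where 30.1% of all genes passed (15.3% higher, 14.8% lower). The median log2 fold change of the 33 genes was -0.04 in succinate mice and 0.04 in control mice, against -0.02 and -0.004 over all tested genes. The shares are near those of all genes in succinate mice and somewhat above them in control mice, with no test of the list made. Called in both kinds of mice, in the same direction, were 8 genes: Slc2a6, Pfkm and Ldha were higher, and Hk3, Pgam1, Pkm, Slc16a3 and Pdk1 lower. How often calls were shared among all tested genes was not computed, so this overlap has no background to be read against. Beyond these Rpia was called in succinate mice, and Slc2a1, Pfkp, Tpi1, Eno2 and G6pdx in control mice. An unadjusted p below 0.05 was found for 16 of the 33 in succinate mice and 17 in control mice, where 40% and 39.2% of all genes had one. Groups did not overlap for 8 higher and 9 lower genes in succinate mice, where 19.9% and 21.5% of all genes did (41.4% in all), and for 8 higher and 7 lower genes in control mice, where 22.3% and 23.2% did (45.5% in all). Among the 7 libraries low in the 5 genes named above, where each unstimulated group is 1 library, 6 of the 33 passed in succinate mice (Slc2a6, Hk3, Pfkm, Pkm, Slc16a3 and Taldo1), where 14.5% of all genes did, and 6 in control mice (Slc2a1, Slc2a6, Pfkm, Eno2, Slc16a3 and Gapdh), where 13.7% did. Gapdh was lower with LPS there, against a lone unstimulated library high in Gapdh. With this split of the libraries as a covariate 10 of the 33 passed in succinate mice, where 25.5% of all genes did, with Pfkfb4 and Taldo1 added and Pdk1 lost. In control mice 16 passed, where 30.1% of all genes did, with Hk2, Pfkfb3 and Pfkfb4 added. The difference between the LPS effects was tested for each gene and is given further on. Fewer cells of a type and less RNA per cell cannot be told apart in such bulk libraries.

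**Figure D2:**
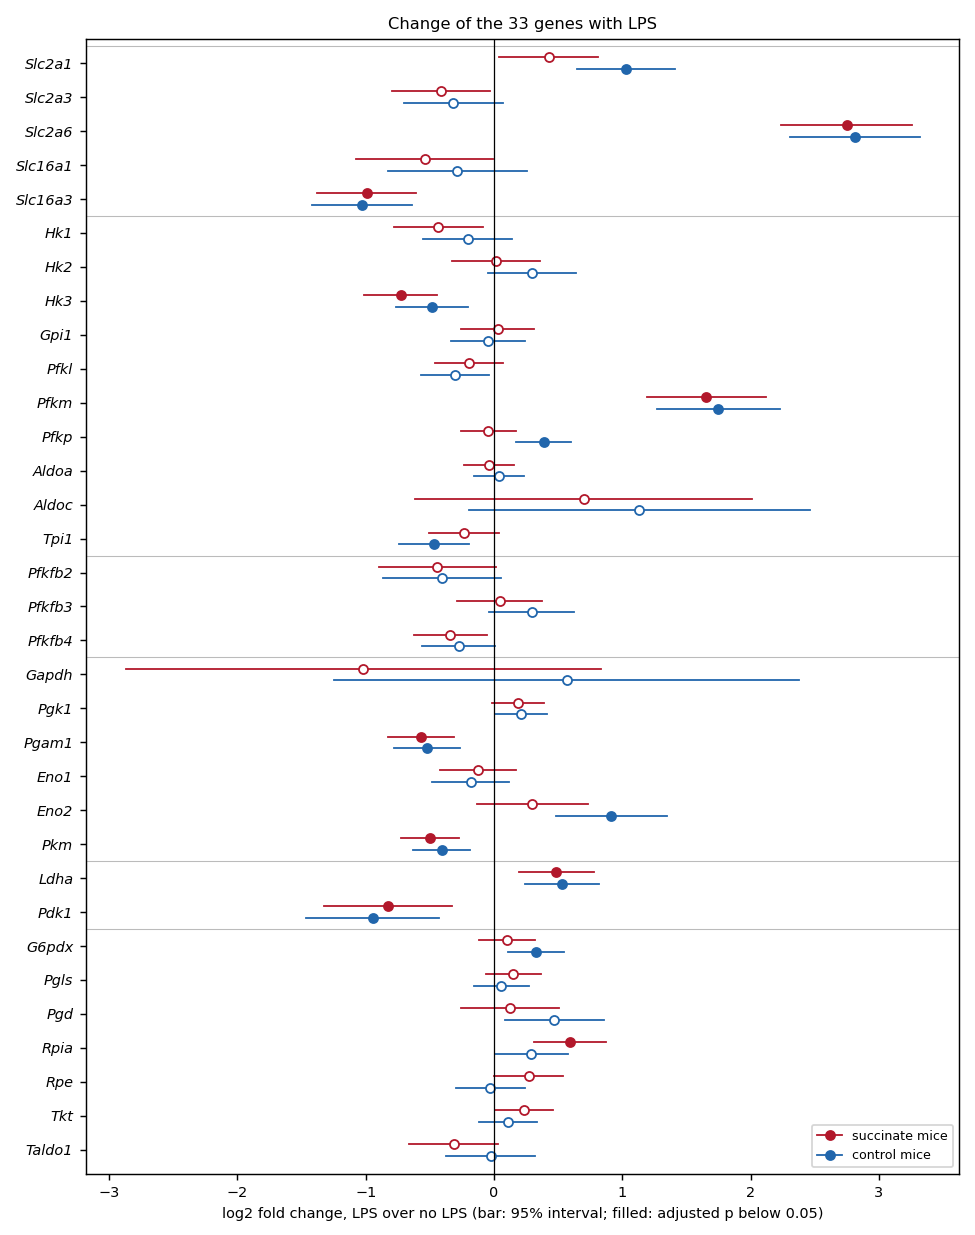
Log2 fold change with LPS (LPS over unstimulated) of the 33 genes in succinate mice (upper, red) and control mice (lower, blue), grouped by role from transporters at the top to the pentose phosphate pathway at the bottom, with 95% intervals from edgeR (n = 3 libraries per group). Filled points are the 9 and 13 genes called, and the largest called changes are the rises of Slc2a6 and Pfkm in both kinds of mice.

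Among the transporters, Slc2a6, a lysosomal member of the glucose transporter family, had the largest change. It stood at 116, 169.5 and 195 CPM in succinate mice with LPS, against 29.1, 19.3 and 23.0 CPM unstimulated. Control mice had 244, 188 and 221 CPM with LPS, against 19.4, 34.3 and 39.3 CPM unstimulated. Every LPS library was above every unstimulated one. The log2 fold change was 2.75 ± 0.24 in succinate mice (SE, edgeR adjusted p = 9.52e-07) and 2.81 ± 0.24 in control mice (edgeR adjusted p = 6.81e-07).

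Slc2a1 encodes GLUT1, the main glucose carrier of activated macrophages. In control mice it had 167, 128 and 151 CPM with LPS, against 76.1, 71.8 and 70.3 CPM unstimulated, and rose by 1.03 ± 0.18 on the log2 scale (edgeR adjusted p = 0.000477). Succinate mice had 103, 114 and 119 CPM with LPS, against 96.8, 99.4 and 54.2 CPM unstimulated. The groups did not overlap there either, but 2 of the 3 unstimulated libraries lay just under the LPS libraries, and the log2 fold change of 0.43 ± 0.18 did not pass (edgeR adjusted p = 0.0905). It passed without library 2 of succinate mice unstimulated (edgeR adjusted p = 0.0463), and without library 3, the lowest of that group, the log2 fold change was 0.19. Slc2a3, which encodes the high-affinity carrier GLUT3, averaged 76.6 ± 15.6 CPM in succinate mice with LPS and 102 ± 22.2 CPM unstimulated, and 65.2 ± 10.9 CPM in control mice with LPS and 81.3 ± 5.35 CPM unstimulated (SD, n = 3 each). Its log2 fold changes were -0.41 ± 0.18 in succinate mice and -0.32 ± 0.18 in control mice, neither called, and the one in succinate mice passed without library 3 of succinate mice unstimulated (edgeR adjusted p = 0.0182).

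The lactate exporter Slc16a3 (MCT4) went the other way from the lactate-forming enzyme Ldha. Slc16a3 had 62.1, 68.4 and 81.4 CPM in succinate mice with LPS, against 126, 127 and 169 CPM unstimulated. In control mice it had 76.7, 70.0 and 97.7 CPM with LPS, against 124, 199 and 175 CPM unstimulated. It was lower in each LPS library than in each unstimulated one and fell by 0.99 ± 0.18 on the log2 scale in succinate mice (edgeR adjusted p = 0.000742) and fell by 1.03 ± 0.18 in control mice (edgeR adjusted p = 0.000531). Slc16a1 (MCT1), which carries lactate in both directions, averaged 39.2 ± 7.64 CPM in succinate mice with LPS and 57.0 ± 20.2 CPM unstimulated, and 31.6 ± 9.73 CPM in control mice with LPS and 38.5 ± 1.19 CPM unstimulated. It was not called with LPS, although the log2 fold change of -0.54 ± 0.25 in succinate mice passed without library 3 of succinate mice unstimulated (edgeR adjusted p = 0.00918).

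In upper glycolysis the rate-setting phosphofructokinase genes parted by isoform. Pfkm, the muscle-type subunit, was low in all libraries, with 6.54, 7.05 and 5.81 CPM in succinate mice with LPS, against 1.76, 1.87 and 2.5 CPM unstimulated. Control mice had 5.18, 6.49 and 5.32 CPM with LPS, against 1.85, 1.62 and 1.56 CPM unstimulated. The groups stood well apart, and Pfkm rose by 1.66 ± 0.22 in succinate mice (edgeR adjusted p = 3.33e-05) and by 1.75 ± 0.22 in control mice (edgeR adjusted p = 2.43e-05). An exon of Pfkm shares 18 bases with Senp1 on the other strand, which had 19913 counts over the 12 libraries against 816 of Pfkm, and whether counting used strand is not given in the sources used here.

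Pfkp had 236, 262 and 274 CPM in succinate mice with LPS, against 272, 275 and 249.9 CPM unstimulated, and these groups overlapped. In control mice it had 364, 316 and 331 CPM with LPS, against 249, 273 and 251 CPM unstimulated, and rose by 0.39 ± 0.10 (edgeR adjusted p = 0.00844). Pfkp, Gapdh and, without LPS, Slc16a1 are given library by library after their values were seen, the other members by the size of their called change. The liver-type Pfkl averaged 50.9 ± 1.97 CPM in succinate mice with LPS and 58.2 ± 4.14 CPM unstimulated, and 45.6 ± 6.99 CPM in control mice with LPS and 56.4 ± 6.18 CPM unstimulated. It was not called (log2 fold changes -0.19 ± 0.12 in succinate mice and -0.31 ± 0.13 in control mice), but in control mice it passed without library 3 of control mice with LPS (edgeR adjusted p = 0.0373) and with library size as the only scaling (edgeR adjusted p = 0.0298).

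Hk3, which phosphorylates glucose on entry, was lower with LPS. Succinate mice had 175, 213 and 239 CPM with LPS, against 349, 287 and 402 CPM unstimulated. Control mice had 292, 288 and 271 CPM with LPS, against 394, 391 and 405 CPM unstimulated. The log2 fold change was -0.73 ± 0.13 in succinate mice (edgeR adjusted p = 0.000695) and -0.48 ± 0.13 in control mice (edgeR adjusted p = 0.0122), with no overlap of the groups in either. In control mice the call was lost without library 3 of control mice with LPS (edgeR adjusted p = 0.0544) or library 3 of control mice unstimulated (edgeR adjusted p = 0.058). Hk1 and Hk2, the mitochondria-bound hexokinases, were not called. Hk1 averaged 198 ± 10.9 CPM in succinate mice with LPS and 268 ± 57.9 CPM unstimulated, a log2 fold change of -0.43 ± 0.16 that passed without library 3 of control mice with LPS (edgeR adjusted p = 0.0482) or library 1 of succinate mice unstimulated (edgeR adjusted p = 0.0185). In control mice Hk1 changed by -0.20 ± 0.16. Hk2 had log2 fold changes of 0.02 ± 0.16 in succinate mice and 0.30 ± 0.16 in control mice, and the change in control mice passed without library 1 of control mice with LPS (edgeR adjusted p = 0.0435) and with the library split as a covariate (edgeR adjusted p = 0.0305).

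Triose phosphate isomerase, Tpi1, averaged 118 ± 16.9 CPM in control mice with LPS and 163 ± 6.44 CPM unstimulated (SD, n = 3 each). It fell there by 0.47 ± 0.13 (edgeR adjusted p = 0.0114), a call lost without library 1 (edgeR adjusted p = 0.0779) or library 2 (edgeR adjusted p = 0.0699) of control mice with LPS or library 3 of control mice unstimulated (edgeR adjusted p = 0.0591). In succinate mice Tpi1 changed by -0.24 ± 0.13 and was not called. Exons of Tpi1 share 34 bases with Spsb2 on the other strand, which had 9567 counts against 28321 of Tpi1. The isomerase Gpi1 (0.03 ± 0.13 in succinate mice, -0.05 ± 0.13 in control mice) and the aldolase Aldoa (-0.04 ± 0.09 in succinate mice, 0.04 ± 0.09 in control mice) were not called, and their 95% intervals lay between -0.34 and 0.31. Aldoc had under 1.1 CPM in each library and log2 fold changes of 0.70 ± 0.62 in succinate mice and 1.13 ± 0.62 in control mice. Neither passed, and the one in control mice did so without library 2 of control mice unstimulated (edgeR adjusted p = 0.0388).

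The PFKFB enzymes make and break the allosteric activator of phosphofructokinase, and none of the 3 was called with LPS. Pfkfb3 averaged 232 ± 25.3 CPM in succinate mice with LPS and 225 ± 18.1 CPM unstimulated, and 281 ± 75.0 CPM in control mice with LPS and 229 ± 15.6 CPM unstimulated. Its log2 fold changes were 0.04 ± 0.16 in succinate mice and 0.30 ± 0.16 in control mice, and that in control mice passed without library 1 of control mice with LPS (edgeR adjusted p = 0.0427) and with the library split as a covariate (edgeR adjusted p = 0.0387). Pfkfb4 changed by -0.34 ± 0.13 in succinate mice and -0.28 ± 0.13 in control mice, and Pfkfb2 by -0.44 ± 0.21 in succinate mice and -0.40 ± 0.22 in control mice. With that covariate Pfkfb4 passed at -0.52 in succinate mice (edgeR adjusted p = 0.00582) and -0.36 in control mice (edgeR adjusted p = 0.0209). In succinate mice all LPS libraries of Pfkfb4 and Pfkfb2 lay under all unstimulated ones, as did 21.5% of all tested genes.

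In lower glycolysis Pgam1 and Pkm fell in both kinds of mice. Pgam1, the phosphoglycerate mutase, had 135, 146 and 187 CPM in succinate mice with LPS, against 234, 209 and 251 CPM unstimulated. Control mice had 182, 164 and 172 CPM with LPS, against 251, 247 and 247 CPM unstimulated. No libraries overlapped, and Pgam1 fell by 0.57 ± 0.12 in succinate mice (edgeR adjusted p = 0.00236) and fell by 0.52 ± 0.12 in control mice (edgeR adjusted p = 0.00428). Pkm averaged 2028 ± 122 CPM in succinate mice with LPS and 2866 ± 182 CPM unstimulated, and 2105 ± 146 CPM in control mice with LPS and 2794 ± 65.0 CPM unstimulated. It fell by 0.50 ± 0.10 in succinate mice (edgeR adjusted p = 0.00197) and fell by 0.41 ± 0.10 in control mice (edgeR adjusted p = 0.00773), and the call in control mice was lost without library 2 of control mice with LPS (edgeR adjusted p = 0.0522).

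Of the enolases, Eno2, the isoform named for neurons, rose in control mice. It had 141, 117 and 67.4 CPM in control mice with LPS, against 59.6, 55.5 and 57.3 CPM unstimulated, a log2 fold change of 0.91 ± 0.20 (edgeR adjusted p = 0.00306). In succinate mice it had 55.4, 71.2 and 76.4 CPM with LPS, against 61.2, 52.6 and 51.1 CPM unstimulated, and the groups overlapped (0.30 ± 0.20, edgeR adjusted p = 0.295). Eno1, the widespread enolase, changed by -0.12 ± 0.14 in succinate mice and -0.18 ± 0.14 in control mice. The one in control mice passed without library 3 of control mice with LPS (edgeR adjusted p = 0.0465). Pgk1, the phosphoglycerate kinase that makes ATP, was higher in every LPS library than in the unstimulated libraries of the same feeding group. With log2 fold changes of 0.19 ± 0.09 in succinate mice (edgeR adjusted p = 0.149) and 0.21 ± 0.09 in control mice (edgeR adjusted p = 0.115) it was not called.

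The pair of genes at the fate of pyruvate moved in opposite directions. Ldha had 261, 286 and 359.8 CPM in succinate mice with LPS, against 228, 184 and 236 CPM unstimulated. Control mice had 289, 311 and 362 CPM with LPS, against 218, 218 and 230.2 CPM unstimulated. LPS libraries lay above unstimulated ones, and Ldha rose by 0.49 ± 0.14 in succinate mice (edgeR adjusted p = 0.0134) and 0.53 ± 0.14 in control mice (edgeR adjusted p = 0.00787). The call in succinate mice was lost without library 3 of succinate mice with LPS (edgeR adjusted p = 0.0778) or library 2 of succinate mice unstimulated (edgeR adjusted p = 0.0636). Without the 3 libraries highest in Gapdh it was lost in succinate mice (edgeR adjusted p = 0.061) and in control mice (edgeR adjusted p = 0.0547).

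Pdk1, the kinase that switches off pyruvate dehydrogenase, had 4.34, 5.02 and 4.79 CPM in succinate mice with LPS, against 7.11, 8.17 and 9.79 CPM unstimulated. Control mice had 2.99, 3.38 and 4.36 CPM with LPS, against 4.63, 8.11 and 7.93 CPM unstimulated. At these low counts the groups did not overlap, and Pdk1 fell by 0.82 ± 0.23 in succinate mice (edgeR adjusted p = 0.0151) and fell by 0.94 ± 0.24 in control mice (edgeR adjusted p = 0.00802). The call in succinate mice was lost without library 1 of succinate mice with LPS (edgeR adjusted p = 0.0537) or library 3 of succinate mice unstimulated (edgeR adjusted p = 0.0582). With the library split as a covariate the log2 fold change in succinate mice was -0.47 and the call was lost (edgeR adjusted p = 0.108). In control mice it was lost among the 7 low libraries (-0.52, edgeR adjusted p = 0.294).

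**Figure D3:**
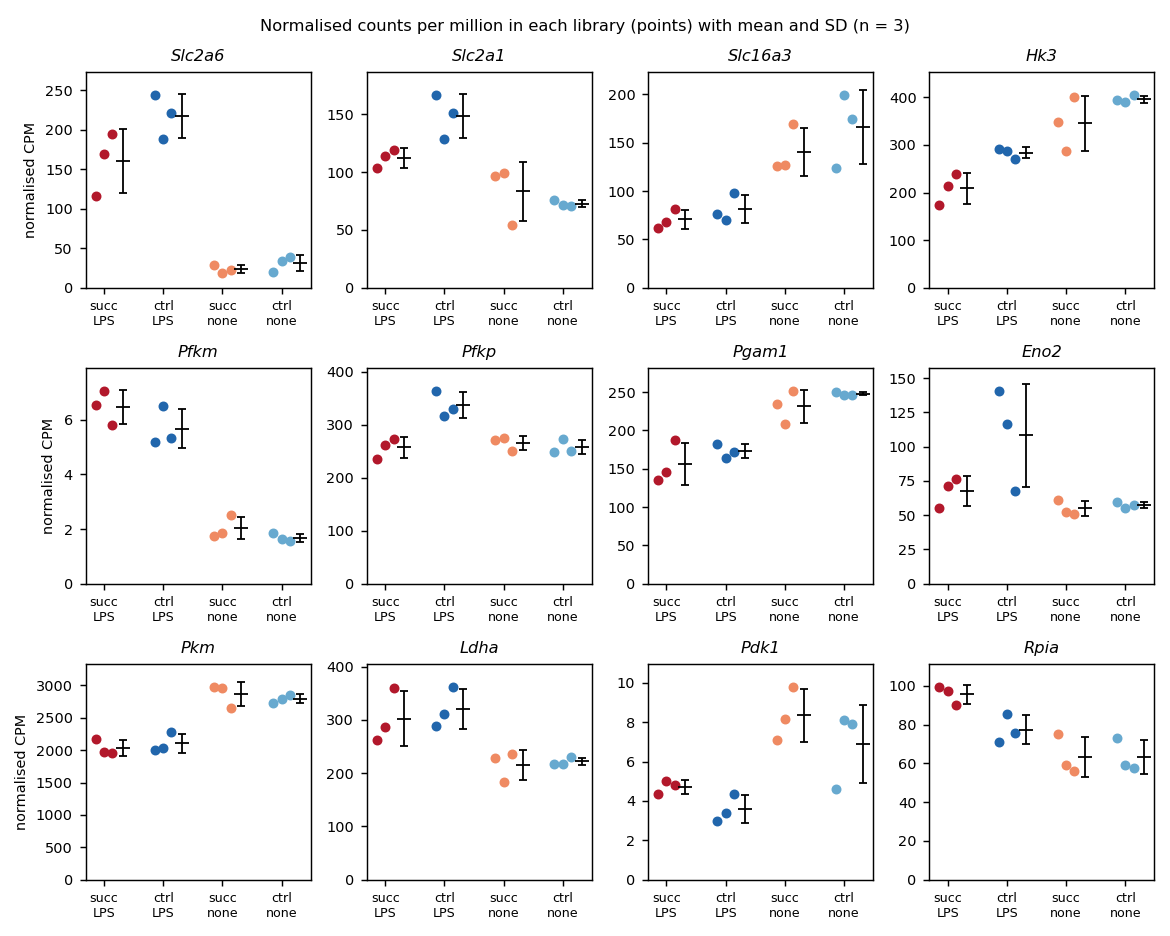
Normalised CPM of 12 genes in each library (points, 3 per group) with the group mean and SD as bars, in succinate mice with LPS, control mice with LPS, succinate mice unstimulated and control mice unstimulated. Slc2a6 and Pfkm stand higher in all LPS libraries than in the unstimulated libraries of the same feeding group. Slc16a3, Hk3, Pgam1, Pkm and Pdk1 stand lower. In control mice with LPS the Eno2 points spread from 67.4 to 141 CPM.

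Of the 7 pentose phosphate pathway genes 1 was called higher in each kind of mouse, where 14.1% of all genes were in succinate mice and 15.3% in control mice. Rpia, the isomerase that forms ribose phosphate, had 99.4, 97.5 and 89.9 CPM in succinate mice with LPS, against 75.2, 58.9 and 56.1 CPM unstimulated. It rose by 0.59 ± 0.13 (edgeR adjusted p = 0.00332). Control mice had 71.0, 85.6 and 75.5 CPM with LPS, against 73.3, 59.0 and 57.5 CPM unstimulated, with 1 unstimulated library inside the LPS range. The change there of 0.29 ± 0.13 (edgeR adjusted p = 0.121) passed without library 1 of control mice unstimulated (edgeR adjusted p = 0.0475).

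G6pdx, the dehydrogenase at the entry of the pathway, averaged 459 ± 19.8 CPM in control mice with LPS and 366 ± 31.0 CPM unstimulated and rose by 0.33 ± 0.10 (edgeR adjusted p = 0.026). That call was lost without library 1 of control mice with LPS (edgeR adjusted p = 0.058) or without library 2 (edgeR adjusted p = 0.0963) or library 3 (edgeR adjusted p = 0.0591) of control mice unstimulated. It was also lost with no filter on low counts (edgeR adjusted p = 0.114) and with library size as the only scaling (edgeR adjusted p = 0.0888). Its exons share 418 bases with Ikbkg, a subunit gene of the kinase upstream of NF-kB, on the other strand. In succinate mice G6pdx changed by 0.10 ± 0.10. Pgd, at the next oxidative step, averaged 1541 ± 293 CPM in control mice with LPS and 1113 ± 179 CPM unstimulated, a log2 fold change of 0.47 ± 0.18 that was not called (edgeR adjusted p = 0.0648). It passed without library 3 of control mice with LPS (edgeR adjusted p = 0.0217), library 1 (edgeR adjusted p = 0.05) or library 3 (edgeR adjusted p = 0.0282) of succinate mice unstimulated or library 1 of control mice unstimulated (edgeR adjusted p = 0.0341), and with DESeq2 (adjusted p = 0.0399).

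The lactonase Pgls, the epimerase Rpe, the transketolase Tkt and Taldo1 were not called with LPS. Their log2 fold changes were 0.15 ± 0.10, 0.27 ± 0.12, 0.24 ± 0.11 and -0.31 ± 0.16 in succinate mice, and 0.06 ± 0.10, -0.03 ± 0.13, 0.11 ± 0.11 and -0.03 ± 0.16 in control mice. Rpe in succinate mice passed without library 1 of succinate mice unstimulated (edgeR adjusted p = 0.0461). Taldo1 in succinate mice passed at -0.56 with the library split as a covariate (edgeR adjusted p = 0.00298).

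Genes listed as markers of cell types moved beside these LPS changes. The 12 neutrophil markers summed to 18237 to 20871 CPM in succinate mice with LPS and 9185 to 12322 CPM unstimulated, and to 16098 to 21521 CPM in control mice with LPS and 10391 to 15881 CPM unstimulated. Of the 12, 5 rose and 2 fell with LPS in each kind of mouse. Ly6g, the defining surface marker, stayed at 2.06 to 8.33 CPM, while granule genes such as Mpo reached 1814 CPM. The largest parts of the sum came from Ngp (up to 6298 CPM), S100a9 (up to 5506 CPM) and S100a8 (up to 4274 CPM). Whether neutrophils or the monocytes themselves gave these reads cannot be told. The 10 monocyte markers summed to 9091 to 10935 CPM in succinate mice with LPS and 9199 to 11958 CPM unstimulated, and to 11459.6 to 12496 CPM in control mice with LPS and 12638 to 13589.8 CPM unstimulated. Of these 10, 3 rose and 4 fell with LPS in each kind of mouse. The 6 dendritic cell markers summed to 19.4 to 19.5 CPM in succinate mice with LPS and 7.97 to 13.9 CPM unstimulated, and to 20.8 to 29.1 CPM in control mice with LPS and 8.11 to 9.43 CPM unstimulated, and 2 of them rose in each. The 7 T and NK cell markers summed to 31.8 to 42.0 CPM in succinate mice with LPS and 18.8 to 24.01 CPM unstimulated, with 1 called higher. In control mice they summed to 17.99 to 30.4 CPM with LPS and 22.8 to 24.4 CPM unstimulated. Only 1 of these 7 was tested. Nkg7, at 17.6 to 40.5 CPM, made up most of the sum. Cd3e, Cd3g, Cd4, Cd8a, Ncr1 and Klrb1c each had at most 0.592 CPM in any library. The 6 eosinophil, basophil and mast cell markers summed to 25.6 to 43.0 CPM in succinate mice with LPS and 18.1 to 21.7 CPM unstimulated, and to 17.5 to 30.4 CPM in control mice with LPS and 16.7 to 18.4 CPM unstimulated, with 1 called higher in each. No marker of B cells, red cells or platelets was called, and their sums reached 29.9, 65.9 and 4.63 CPM in the highest library. Of these markers 6 of 6, 5 of 8 and 1 of 5 were tested, so most platelet markers could not have been called. The part of any of these in the changes above was not tested.

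Succinate feeding gave no call among the 33 genes. With LPS, 0 of 33 passed edgeR's test, where 0.0628% of all tested genes (9 genes, all lower in succinate mice) passed. An unadjusted p below 0.05 was found for 6 of the 33 (Slc2a1, Hk3, Pfkp, Eno2, Rpia and Rpe) and for 11.7% of all genes. DESeq2 called 2 members (Pfkp and Eno2), where it called 332 of 10288 genes in all. Limma-voom called 0 members, where it called 34 of 14324 genes. Of the 33 genes, 7 had groups that did not overlap, where 17.1% of all genes did. Pgls, Rpia and Rpe were higher in each succinate library (6.95% of all genes were), and Slc2a1, Hk3, Pfkp and G6pdx lower (10.2% of all genes).

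Among cells with LPS, Pfkp, Eno2 and Hk3 had the 3 lowest p-values of the 33 genes. Pfkp averaged 257 ± 19.1 CPM in succinate mice and 337 ± 24.6 CPM in control mice, a log2 fold change of -0.39 ± 0.10 (edgeR adjusted p = 0.12, DESeq2 adjusted p = 0.00894). Eno2 averaged 67.7 ± 10.9 CPM in succinate mice and 108 ± 37.3 CPM in control mice, a log2 fold change of -0.68 ± 0.20 (edgeR adjusted p = 0.184, DESeq2 adjusted p = 0.0408). Library 3 of control mice with LPS, at 67.4 CPM, lay inside the range of succinate mice, and without it the difference in Eno2 passed (edgeR adjusted p = 0.019). Hk3 averaged 209 ± 32.4 CPM in succinate mice and 284 ± 11.1 CPM in control mice (-0.44 ± 0.13, edgeR adjusted p = 0.187), and Slc2a1 112 ± 8.25 CPM in succinate mice and 148 ± 19.3 CPM in control mice (-0.41 ± 0.18, edgeR adjusted p = 0.395).

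In the pentose phosphate pathway Rpe averaged 86.2 ± 9.24 CPM in succinate mice with LPS and 67.6 ± 6.38 CPM in control mice with LPS (0.35 ± 0.12, edgeR adjusted p = 0.277), and Rpia 95.6 ± 5.02 CPM in succinate mice and 77.4 ± 7.48 CPM in control mice (0.31 ± 0.13, edgeR adjusted p = 0.388). Exons of Rpe share 558 bases with Kansl1l on the other strand. G6pdx averaged 398 ± 29.2 CPM in succinate mice and 459 ± 19.8 CPM in control mice (-0.21 ± 0.10). Ldha differed by -0.08 ± 0.13 with a 95% interval of -0.37 to 0.21, and Slc2a6 by -0.44 ± 0.23 with an interval of -0.94 to 0.05. For Aldoa, Pkm and Pgk1 the intervals lay between -0.28 and 0.29.

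In unstimulated cells 0 of 33 genes passed between succinate and control mice, as did 0 of all tested genes with edgeR, and DESeq2 and limma-voom called 0 of the 33 too. Slc16a1 was the member with an unadjusted edgeR p below 0.05, with 66.96, 70.3 and 33.8 CPM in succinate mice and 37.3, 38.5 and 39.7 CPM in control mice (log2 fold change 0.57 ± 0.25, edgeR adjusted p = 0.958). Its library 3 lay under all control libraries. The share of all genes at that unadjusted level was 3.73%. Pgk1 had groups that did not overlap, at 319 ± 20.9 CPM in succinate mice and 295 ± 3.67 CPM in control mice, where 7.92% of all genes had such groups (3.65% higher, 4.27% lower). The median absolute log2 fold change of the 33 genes was 0.0991, against 0.142 over all tested genes.

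**Figure D4:**
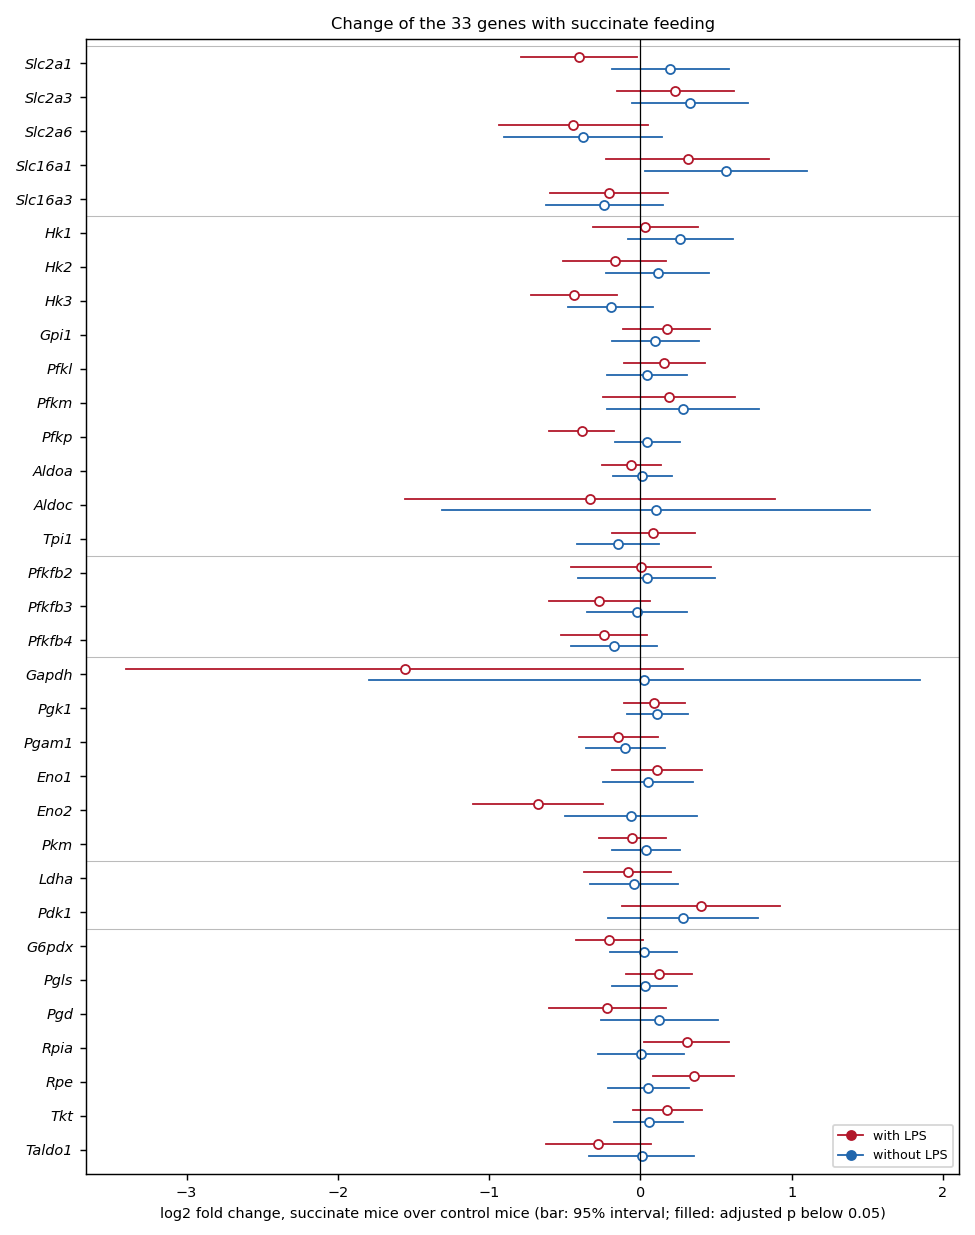
Log2 fold change with succinate feeding (succinate mice over control mice) of the 33 genes in cells with LPS (upper, red) and without LPS (lower, blue), in the same order of roles, with 95% intervals from edgeR (n = 3 libraries per group). No point is filled, since no gene was called, and the intervals of Gapdh and Aldoc are the widest.

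The difference between the LPS effects in succinate mice and in control mice was tested as an interaction, and 0 of the 33 genes passed, as did 0 of all tested genes with edgeR. DESeq2 and limma-voom also called 0 of the 33. An unadjusted p below 0.05 was found for 3 members, where 3.91% of all genes had one. The LPS effect in succinate mice minus that in control mice was -0.43 ± 0.14 for Pfkp, -0.60 ± 0.25 for Slc2a1 and -0.61 ± 0.29 for Eno2 on the log2 scale, each with an edgeR adjusted p of 1. For Rpia it was 0.30 ± 0.19, for G6pdx -0.23 ± 0.14 and for Tpi1 0.23 ± 0.18. So the 6 genes called in a single kind of mouse are not shown to respond differently to LPS in succinate and control mice. The median standard error of this difference over the 33 genes was 0.197.

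Gapdh, the dehydrogenase that makes NADH in lower glycolysis, could not be read like the others. It had 17.3, 15.2 and 13.5 CPM in succinate mice with LPS, 12.4, 14.02 and 109 CPM in control mice with LPS, 15.1, 66.5 and 11.6 CPM in succinate mice unstimulated, and 69.6, 11.5 and 10.4 CPM in control mice unstimulated. High values of 1140 to 1705 counts occurred in 1 library of each of the last 3 groups, and the other 9 libraries had 166 to 331 counts. No contrast was called, with standard errors of 0.85 to 1.21. The genome holds 77 annotated genes that match Gapdh at 95% identity or more over at least 300 bases, of which 75 had a count. Together they held 6663 counts, which is 52.1% of the sum with the 6136 of Gapdh. These copies summed to 398 to 629 counts per library and were not raised in the 3 libraries high in Gapdh. Exons of Gapdh also share 68 bases with Iffo1 on the other strand.

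**Figure D5:**
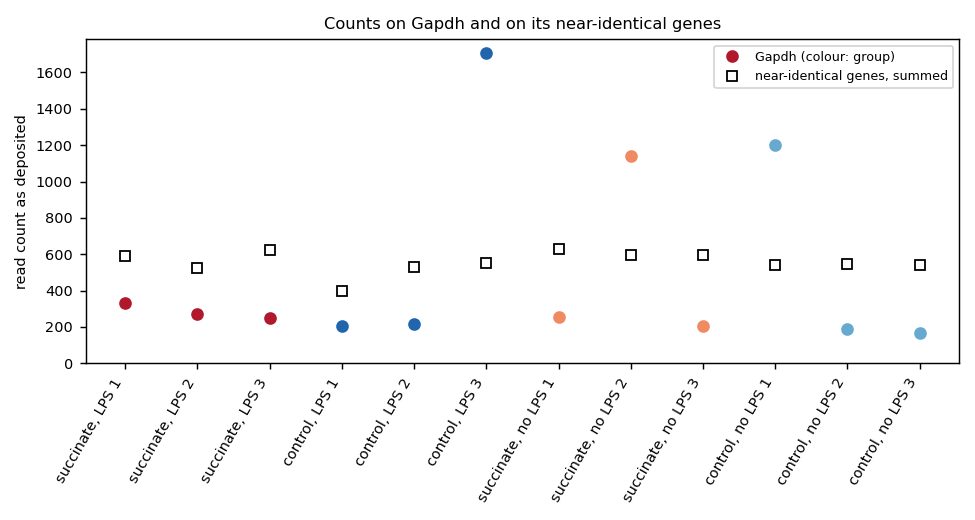
Read counts as deposited on Gapdh (filled, coloured by group) and on its 77 near-identical genes summed (open squares) in each of the 12 libraries. Gapdh lies at 1140 to 1705 counts in 3 libraries of 3 groups and at 166 to 331 in the other 9, while the summed copies stay between 398 and 629.

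Near-identical genes held far fewer counted reads beside the other members. How reads that match several genes were counted is not given in the sources used here. These shares therefore do not show how many reads a member lost. Gm5537, identical to Pgk1 over 1252 bases, had 2 counts in all. The near-identical genes took 2.93% of the sum for Eno1, 0.984% for Pgam1, 0.819% for Tpi1, 0.804% for Pkm, 0.48% for Pgk1, 0.235% for Gpi1 and 0.0295% for Ldha. No such gene was found for the other 25. A further row with the symbol Aldoa, of another identifier, had 2 to 14 counts per library and was kept apart.

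Genes around the pathway were read from 3 lists. Of 30 other isoforms and paralogs 16 were tested, and with LPS 2 rose and 3 fell in succinate mice, and 1 rose and 3 fell in control mice, where 30.2% and 30.1% of all tested genes were called in succinate and control mice. Slc2a8, a further glucose transporter, had log2 fold changes of -1.38 ± 0.29 in succinate mice (edgeR adjusted p = 0.00185) and -1.21 ± 0.28 in control mice (edgeR adjusted p = 0.00406). Slc16a7, the lactate carrier MCT2, fell by 1.38 ± 0.36 in succinate mice (edgeR adjusted p = 0.00881) and fell by 1.73 ± 0.36 in control mice (edgeR adjusted p = 0.00197), and the call in succinate mice was lost without library 3 of succinate mice unstimulated (log2 fold change -0.80, edgeR adjusted p = 0.0592) and with the library split as a covariate (edgeR adjusted p = 0.0656). Pdk2, a sister kinase of Pdk1, averaged 0.487 CPM in succinate mice with LPS and 2.24 CPM unstimulated, and 0.521 CPM in control mice with LPS and 2.46 CPM unstimulated. Its log2 fold changes were -2.18 ± 0.57 in succinate mice (edgeR adjusted p = 0.00836) and -2.21 ± 0.58 in control mice (edgeR adjusted p = 0.00798). Pfkfb1 rose by 0.89 ± 0.23 in succinate mice (edgeR adjusted p = 0.00933) and had 0.59 ± 0.24 in control mice (edgeR adjusted p = 0.0829), where it passed without library 1 of control mice with LPS (edgeR adjusted p = 0.0421).

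Of 22 regulators and partners 19 were tested, and with LPS 1 rose and 6 fell in succinate mice, and 3 rose and 5 fell in control mice. Of all tested genes 14.1% rose and 16.2% fell in succinate mice, and 15.3% rose and 14.8% fell in control mice. Hif1a averaged 269 CPM in succinate mice with LPS and 212 CPM unstimulated (0.34 ± 0.13, edgeR adjusted p = 0.0596), and 292 CPM in control mice with LPS and 227 CPM unstimulated (0.36 ± 0.13, edgeR adjusted p = 0.0466). The call in control mice held in 12 of 23 alternative settings. It was lost without library 1 or 3 of control mice with LPS, without any library of control mice unstimulated and without library 2 of succinate mice with LPS (edgeR adjusted p = 0.0669 to 0.12). In succinate mice Hif1a passed in 9 settings, among them without library 1 of succinate mice with LPS (edgeR adjusted p = 0.0417), library 3 of control mice with LPS (edgeR adjusted p = 0.0484) or library 1 of succinate mice unstimulated (edgeR adjusted p = 0.00631). Myc, which encodes a factor that raises glycolytic genes in growing cells, rose by 2.57 ± 0.36 in succinate mice (edgeR adjusted p = 8.16e-05) and 1.97 ± 0.36 in control mice (edgeR adjusted p = 0.000712). Txnip, a brake on glucose uptake, fell by 0.41 ± 0.10 in succinate mice (edgeR adjusted p = 0.00464) and fell by 0.42 ± 0.10 in control mice (edgeR adjusted p = 0.00447). Slc37a2, a sugar phosphate carrier of the endoplasmic reticulum, had the largest fall among the genes named, at 13.5 CPM in succinate mice with LPS against 229 CPM unstimulated and 25.4 CPM in control mice with LPS against 355 CPM unstimulated. Its log2 fold changes were -4.08 ± 0.29 in succinate mice (edgeR adjusted p = 2.13e-07) and -3.81 ± 0.29 in control mice (edgeR adjusted p = 3.17e-07). Emb, an ancillary protein of lactate carriers, fell by 0.91 ± 0.12 in succinate mice (edgeR adjusted p = 3.63e-05) and fell by 0.84 ± 0.12 in control mice (edgeR adjusted p = 7.56e-05).

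Of 29 genes of the branches out of glycolysis 28 were tested, and with LPS 4 rose and 7 fell in succinate mice, and 5 rose and 6 fell in control mice, beside the same shares of all genes. Phgdh, which opens the serine branch, averaged 399.9 CPM in succinate mice with LPS and 169.8 CPM unstimulated, and 439 CPM in control mice with LPS and 181 CPM unstimulated, and rose by 1.24 ± 0.14 in succinate mice (edgeR adjusted p = 6.41e-06) and by 1.28 ± 0.14 in control mice (edgeR adjusted p = 4.41e-06). Uap1, at the end of the hexosamine branch, rose by 0.57 ± 0.11 in succinate mice (edgeR adjusted p = 0.000796) and by 0.56 ± 0.11 in control mice (edgeR adjusted p = 0.000952). Gyg, the glycogen primer glycogenin, rose by 0.62 ± 0.12 in succinate mice (edgeR adjusted p = 0.0014) and by 0.39 ± 0.12 in control mice (edgeR adjusted p = 0.0257). The call in control mice was lost without library 2 of control mice with LPS (edgeR adjusted p = 0.11) or library 2 of control mice unstimulated (edgeR adjusted p = 0.0968). Gpd1l, of the glycerol phosphate branch, fell by 0.56 ± 0.13 in succinate mice (edgeR adjusted p = 0.00419) and fell by 0.92 ± 0.13 in control mice (edgeR adjusted p = 7.33e-05). Of the 63 tested genes of the 3 lists, edgeR called 0 for succinate feeding with LPS (6 at an unadjusted p below 0.05), 0 without LPS (3 unadjusted) and 0 in the interaction (1 unadjusted). Slc37a2 in cells with LPS had a log2 fold change of -0.91 ± 0.30 in succinate against control mice (edgeR adjusted p = 0.235) and passed without library 3 of succinate mice with LPS (-1.37, edgeR adjusted p = 0.0327).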

How the data were processed

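Each deposited file holds whole-number read counts per gene of 1 library, not normalised. The authors processed the reads with Trim Galore on build mm10, per the submitters' processing notes. No source used here gives the aligner, the counter, the annotation or the strand setting. Of 54532 identifiers, 54495 are in GENCODE M21, which gave coordinates, exon lengths and near-identical genes (at least 95% identity over 300 bases). All 12 libraries were fitted together in edgeR 4.0.16 (R 4.3.3) with filterByExpr, TMM scaling, 1 mean per group and the quasi-likelihood test. Calls are Benjamini-Hochberg adjusted p below 0.05 over 14324 genes. CPM are TMM-scaled, and errors of fold changes are standard errors from the quasi-likelihood fit. The common biological coefficient of variation was 0.167. The median standard error of a member was 0.139 in each contrast but the interaction, where it was 0.197. Alternatives were DESeq2 1.42.0, limma-voom 3.58.1, other scalings, filters and covariates, and leaving out libraries. All 33 members are named. Library values were set to be given for those called with LPS at an absolute log2 fold change of at least 0.5. Of each further list up to 4 called genes with the smallest p are named, and Hif1a, Myc and Txnip whether called or not. The members and lists were chosen with earlier results of these data known.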

Additional observations from a re-analysis of the deposited data

How the results depend on the processing

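Of the 23 alternatives 22 were planned, and those with the library split use a limit that lies in a gap of these same data. Of the 22 calls with LPS 10 held in every alternative. They were Slc2a6, Pfkm and Slc16a3 in both kinds of mice, Hk3 and Pkm in succinate mice, and Slc2a1 and Eno2 in control mice. The other 12 were lost in at least 1, most often when only the 7 libraries low in the 5 genes were kept, which leaves fewer samples. The count in control mice was then 6. With no filter on low counts 14 members passed with LPS in succinate mice (Slc2a1, Slc2a3, Hk1, Gapdh and Slc16a1 added), where 4487 of 28563 genes did. Between succinate and control mice with LPS 2 passed (Gapdh and Eno2), where 694 of 28563 did. In the interaction 1 passed (Gapdh), where 71 of 28563 did. Slc37a2 passed between succinate and control mice with LPS (edgeR adjusted p = 3.37e-07) and without LPS (edgeR adjusted p = 0.00134), where 72 of 28563 genes did without LPS. For succinate against control mice with LPS the count was also 2 with DESeq2, where 332 of 10288 genes passed. It was 1 (Eno2) with library class as a covariate, where 190 of 14324 genes passed. It was also 1 without the 3 libraries highest in Gapdh, where 30 of 14612 passed, an alternative chosen after seeing the data. The causes were not tested. Leaving out 1 library at a time gave 8 to 11 calls with LPS in succinate mice, 10 to 15 in control mice, 0 to 1 for succinate with LPS, and 0 for succinate without LPS and for the interaction. Over all tested genes (14732 to 14832) it gave 3374 to 4387 calls with LPS in succinate mice, 3347 to 4547 in control mice and 0 to 197 for succinate with LPS. Gapdh with LPS in control mice reversed to -2.38 (edgeR adjusted p = 0.000192) among those 7 libraries, where unstimulated control mice are library 1 alone, 1 of the 3 high in Gapdh, and lone libraries are assumed to vary like the others. Library size alone put the median of all genes at 0.11 for succinate with LPS, against -0.01 with TMM, and called no member. With the replicate number as a block, 10 and 14 members passed with LPS in succinate and control mice, where 4864 and 4756 of 14324 genes did. Hk1 (edgeR adjusted p = 0.0436) was added in succinate mice and Pgd (edgeR adjusted p = 0.0103) in control mice. In the other contrasts 0 members passed, where 77 of 14324 genes did for succinate with LPS. The main fit had no block, because the labels do not say that a replicate number marks a shared mouse, day or batch. Same-numbered libraries had correlations of -0.129 to 0.377, with 7 of 18 pairs over 0.1 and 8 of 12 libraries closest to their own number. Whether the numbers pair the samples is therefore not settled. Beside Gapdh, the widest standard errors with LPS were those of Aldoc (0.62), which had under 1.1 CPM.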
